A study of Mus musculus with 36 samples.

Results

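Chaperones are the proteins that fold other proteins and keep damaged ones from clumping, and the genes described here encode those of the cytosol and the mitochondria, measured in mouse motor neurons grown from embryonic stem cells. The members were taken by symbol: heat shock proteins (Hsp followed by a digit or a letter from a to e), the J-domain genes Dnaja, Dnajb and Dnajc, the subunits of the chaperonin TRiC (Tcp1 and Cct2 to Cct8), and Bag1 to Bag6. Hspa5, Hsp90b1, Dnajc3, Dnajb9 and Dnajb11, which serve the endoplasmic reticulum, and the unrelated Hspg2 and Hspbap1 were left out by name. The rule gave 83 of the 21761 genes listed, and 74 of these were among the 15207 genes with enough reads to be tested. A few members kept by the rule, such as Dnajc10, Dnajc1, Dnajc25 and Hspa13, also encode proteins of the endoplasmic reticulum or microsomes.

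The stem cells came from Hlxb9-GFP1Tmj mice and carried eGFP, or eGFP with the surface protein CD2, under the motor neuron promoter HB9. A magnetic column with antibody against CD2 enriched the reporter cells, which were then cultured in astrocyte-conditioned medium for 1 or 3 days. The media came from astrocytes of newborn pups that over-expressed SOD1 with the G93A mutation (mSOD1), over-expressed wild-type SOD1 (wtSOD1), or were non-transgenic (NTg). The SOD1 transgenes were thus in the astrocytes, while the motor neurons of all groups came from the HB9 reporter line. All media received glucose, antibiotics and the factors GDNF, BDNF and CNTF. There were 6 libraries for each medium and day, numbered by experiment from 1 to 6, which makes 36. Whether an astrocyte culture came from spinal cord or cortex is not given for each library, so the source cannot be told apart from the experiment. The time zero control named in the design was not analysed here. Nothing in the labels says that same-group libraries came from separate differentiations, so p-values measure the spread between these libraries.

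Library totals ran from 4.39 to 88.9 M reads. The smallest was NTg day 1 replicate 6, which also stood apart in markers of other cells: its microglia markers summed to 51.9 counts per M reads (CPM) against 0.738 to 3.35 CPM in the other NTg day 1 libraries. The deepest was wtSOD1 day 1 replicate 4. The labelled cell type had its markers, since 8 motor neuron genes (among them Mnx1, Isl1 and Chat) summed to 767 to 1082 CPM in mSOD1 medium, 534 to 918 CPM in wtSOD1 medium and 631 to 1043 CPM in NTg medium on day 3. On day 1 the same sum was 1441 to 1852 CPM in mSOD1 medium, 1474 to 1739 CPM in wtSOD1 medium and 1459 to 1780 CPM in NTg medium, and all 8 genes fell on day 3 in each medium. Markers of astrocytes, mesenchyme and dividing cells moved the other way and are given beside the results they accompany. In bulk RNA, fewer cells of a type and less RNA per cell cannot be told apart.

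HSP70 proteins bind and release unfolded stretches of other proteins in a cycle driven by ATP. J-domain proteins bring substrates and start the ATP step, BAG proteins, HSPBP1 and the HSP110 family act on nucleotide exchange, HSP90 takes over many signalling proteins, TRiC folds actin and tubulin in its chamber, and small heat shock proteins hold unfolded proteins without ATP. Under heat or toxic stress the transcription factor HSF1 switches on the inducible members, foremost Hspa1a and Hspa1b, by binding repeats of the letters GAA and TTC in their promoters. Motor neurons are known for a high threshold for this response, and chaperones such as HSPB8 with BAG3 handle mutant SOD1 in cell models.

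The promoters of the heat-inducible genes Hspa1a, Hspa1b, Hspb1, Hspe1 and Hspd1 and of the partners Hspb8 and Bag3, which rose with time, are shown because they let the binding repeats be read beside the values. Hspb6, which also rose, has 2 windows in the table, of which 250 and 45 bases lie in annotated exons; the second holds 1 match, and neither is printed. Each run is the 250 bases before the gene start in the RefSeq promoter table (GRCm38.p6), in the gene's direction, and capitals mark matches to GAANNTTC or TTCNNGAA. Both spellings read the same on the other strand, and they can overlap in a longer run of repeats. The window of Hspa1a is chr17:34972157-34972406 and that of Hspa1b chr17:34959239-34959488, both on the minus strand. The window of Hspb1 is chr5:135887669-135887918 on the plus strand, that of Hspb8 chr5:116422865-116423114 on the minus strand, and that of Bag3 chr7:128523333-128523582 on the plus strand. A shorter window of 30 bases, chr1:55088053-55088082 on the plus strand, lies just before the start of Hspe1, in an exon and inside the annotated Hspd1 gene. Hspd1 and Hspe1, the mitochondrial chaperonin genes, overlap at their starts and are read in opposite directions.
Hspa1a: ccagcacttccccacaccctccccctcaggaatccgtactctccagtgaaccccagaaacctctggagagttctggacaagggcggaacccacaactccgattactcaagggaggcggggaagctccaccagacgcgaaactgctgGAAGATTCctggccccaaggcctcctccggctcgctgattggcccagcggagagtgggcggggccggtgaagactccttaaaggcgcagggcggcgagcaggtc
Hspa1b: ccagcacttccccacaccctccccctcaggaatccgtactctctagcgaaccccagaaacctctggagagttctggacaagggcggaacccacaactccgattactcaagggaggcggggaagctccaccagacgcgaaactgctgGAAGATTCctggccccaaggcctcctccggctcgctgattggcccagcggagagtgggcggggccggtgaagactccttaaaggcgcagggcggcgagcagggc
Hspb1: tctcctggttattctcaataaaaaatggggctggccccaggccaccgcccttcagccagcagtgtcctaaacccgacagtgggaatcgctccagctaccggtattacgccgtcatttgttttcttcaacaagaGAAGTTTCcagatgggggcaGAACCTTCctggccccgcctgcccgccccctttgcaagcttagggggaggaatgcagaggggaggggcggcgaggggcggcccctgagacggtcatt
Hspb8: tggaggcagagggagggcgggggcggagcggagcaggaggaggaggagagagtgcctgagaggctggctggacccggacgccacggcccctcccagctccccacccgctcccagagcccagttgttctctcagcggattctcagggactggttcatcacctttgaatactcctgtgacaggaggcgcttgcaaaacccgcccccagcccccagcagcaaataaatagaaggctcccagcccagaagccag
Bag3: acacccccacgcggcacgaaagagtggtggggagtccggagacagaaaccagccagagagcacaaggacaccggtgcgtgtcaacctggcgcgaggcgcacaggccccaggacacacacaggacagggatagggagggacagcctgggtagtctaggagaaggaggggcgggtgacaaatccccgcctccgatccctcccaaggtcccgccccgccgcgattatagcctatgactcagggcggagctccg
Hspe1 and Hspd1: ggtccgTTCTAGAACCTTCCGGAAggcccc

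The windows of Hspa1a and Hspa1b differed at 3 of 250 bases (98.8% identity). Hspb1 held 2 matches, the Hspe1 and Hspd1 window held a run of overlapping matches, and the printed windows of Hspb8 and Bag3 held none. A promoter entry was found for 67 of the 83 members, and 16 of them (23.9%) held at least 1 match, against 14.5% of the 27025 genes in the table. Among members higher on day 3 in all 3 media the share was 6 of 16 (37.5%). It was 3 of 9 (33.3%) among members lower in all 3. Members that differed between days in 1 or 2 media had 3 of 17 (17.6%), and those called in none had 2 of 18 (11.1%). A match is a description of letters and not a binding site, and its absence says only that these letters are not in this window.

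The first question was whether medium from mSOD1 astrocytes moved chaperone expression in the motor neurons. It moved few members. On day 3, Hspa12a was higher in mSOD1 medium than in either control medium, and the neuronal J-domain genes Dnajc6 and Dnajc5 were above NTg and Dnajc9 below it once experiment number was taken into account. The stress-inducible genes Hspa1a, Hspa1b, Hspb1, Hspb8, Dnajb1 and Bag3 passed the test in none of the 6 comparisons between media. The test was edgeR's quasi-likelihood F-test over all 15207 genes with Benjamini-Hochberg adjustment and a threshold of 0.05. Differences are log2 values with their standard error.

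Hspa12a encodes a distant HSP70 relative that is abundant in neurons. On day 3 its lowest, median and highest levels were 267, 320 and 366 CPM in mSOD1 medium, 202, 264 and 312 CPM in wtSOD1 medium, and 215, 262 and 298 CPM in NTg medium. The groups overlapped, but the mSOD1 library was the higher one in 6 of 6 same-numbered pairs with NTg. The difference was 0.30 ± 0.08 against NTg (adjusted p = 0.0355 in edgeR; 0.000439 with experiment as a block) and 0.29 ± 0.08 against wtSOD1 (adjusted p = 0.031 in edgeR; 0.000302 with the block). Between wtSOD1 and NTg it was 0.00 ± 0.08. On day 1 its levels were 330, 360 and 390 CPM in mSOD1 medium, 347, 384 and 407 CPM in wtSOD1 medium, and 340, 380 and 401 CPM in NTg medium, so no excess was seen in mSOD1 medium at that time.

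The day 3 excess of Hspa12a sat on a fall with time. Day 3 minus day 1 was −0.54 in wtSOD1 medium (adjusted p = 2.81e-07 in edgeR) and −0.53 in NTg medium (adjusted p = 4.6e-07 in edgeR). In mSOD1 medium it was −0.17 ± 0.08, which did not pass in edgeR (adjusted p = 0.0641) and passed with the block (0.00464). The test of that difference between mSOD1 and NTg gave 0.36 ± 0.11, with an adjusted p of 0.156 in edgeR and 0.00901 with the block. The block takes an experiment number to act alike on both days, which the libraries hardly showed. The call against NTg was lost without replicate 3, 4, 5 or 6 (adjusted p from 0.0894 to 0.147 in edgeR, log2 difference from 0.28 to 0.31), and so was the call against wtSOD1 (0.0965 to 0.127). Hspa12a overlaps Eno4 on the chromosome, and the sources used here do not say how shared reads were counted. The summed motor neuron markers had day 3 medians of 980 CPM in mSOD1 medium, 772 CPM in wtSOD1 medium and 815 CPM in NTg medium, and their part in the Hspa12a difference was not tested.

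Dnajc6 encodes auxilin, the J-domain protein that strips clathrin from vesicles in neurons. On day 3 it stood at 88.9, 98.1 and 119 CPM in mSOD1 medium (lowest, median, highest), 72.6, 89.9 and 107 CPM in wtSOD1 medium, and 70.2, 88.0 and 97.3 CPM in NTg medium. The groups overlapped and the mSOD1 library was higher in 6 of 6 pairs with NTg. The difference from NTg was 0.24 ± 0.07 (adjusted p = 0.0629 in edgeR, 0.00739 with the block, 0.0327 in DESeq2), and that from wtSOD1 was 0.20 ± 0.07 (0.115 in edgeR, 0.023 with the block). Motor neuron markers had a median difference on day 3 of 0.18 from NTg, with 0 of 8 called by edgeR and 2 with the block (Chat and Slc18a3). From wtSOD1 it was 0.22, with 1 of 8 called by edgeR (Prph) and 3 with the block (Prph, Chat and Slc18a3). Their part in the Dnajc6 and Dnajc5 differences was not tested.

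Dnajc5 encodes cysteine string protein, which guards the release machinery on synaptic vesicles. It had 199, 212 and 237 CPM in mSOD1 medium, 183, 198 and 218 CPM in wtSOD1 medium, and 186, 195 and 209 CPM in NTg medium on day 3. Against NTg the difference was 0.12 ± 0.05, with adjusted p = 0.137 in edgeR and 0.0452 with the block, and it was higher in 6 of 6 pairs. Dnajc9, whose protein is a co-chaperone of histones H3 and H4, went the other way: 53.8, 60.2 and 70.5 CPM in mSOD1 medium, 62.5, 71.7 and 82.2 CPM in wtSOD1 medium, and 65.3, 68.8 and 83.1 CPM in NTg medium. It was higher in 0 of 6 pairs with NTg, with a difference of −0.23 ± 0.08 (adjusted p = 0.1 in edgeR, 0.0148 with the block), and of −0.24 ± 0.08 from wtSOD1 (0.0867 in edgeR, 0.0127 with the block). Markers of dividing cells moved in the same direction as Dnajc9, with 1607 to 2088 CPM in mSOD1 medium, 1817 to 2435 CPM in wtSOD1 medium and 1847 to 2378 CPM in NTg medium on day 3, and their part in its difference was not tested.

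**Figure D1:**
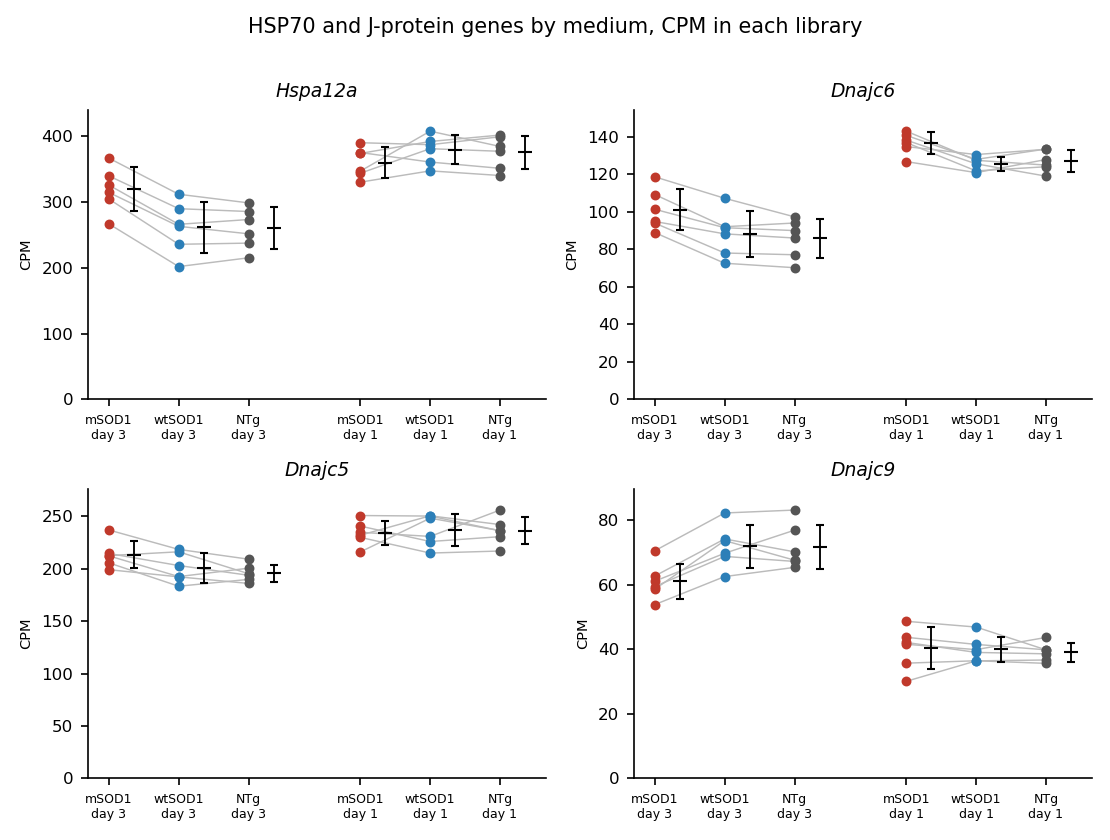
Levels in CPM (linear axes) of Hspa12a, Dnajc6, Dnajc5 and Dnajc9 in each of the 36 libraries, by medium and day; points are libraries, thin lines join libraries of the same experiment number within a day, and bars give the mean ± SD (n = 6). On day 3 the Hspa12a median was 320 CPM in mSOD1 medium, above 264 CPM in wtSOD1 medium and 262 CPM in NTg medium, while the 3 media stood close together on day 1.

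Counted over the tested members, 1 of 74 was past the threshold between mSOD1 and NTg on day 3, against 2.91% of all genes tested, and 8 had an unadjusted p under 0.05. DESeq2 called 2 (Hspa12a and Dnajc6), against 5.57% of all genes. With experiment as a block the count was 4 (Hspa12a, Dnajc6 and Dnajc5 higher, Dnajc9 lower), against 9.94% of all genes. Between mSOD1 and wtSOD1 on day 3 it was 1 of 74, against 3.39% of all genes, and 3 with the block (Hspa12a and Dnajc6 higher, Dnajc9 lower), against 9.32%. The members' shares were below these backgrounds. The median absolute difference between mSOD1 and NTg on day 3 was 0.0616 on the log2 scale for the members and 0.0911 for all genes tested. Between wtSOD1 and NTg, edgeR called 0 of 74 members on day 3 (0.0986% of all genes; 0 members at an unadjusted p under 0.05) and 0 on day 1 (0.0263% of all genes; 4 members at an unadjusted p under 0.05), and DESeq2 called 0 on day 3 (0.171% of all genes) and 0 on day 1 (0.167%).

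On day 1, edgeR called 0 of 74 members between mSOD1 and NTg, against 0.421% of all genes, with 3 at an unadjusted p under 0.05, and DESeq2 called 0 (0.559% of all genes). Between mSOD1 and wtSOD1 it called 2 of 74, against 1.01% of all genes: the ciliary gene Dnajb13, on very few reads, and Hspa14. Hspa14 encodes an HSP70 that works at the ribosome. Its lowest, median and highest day 1 levels were 50.9, 56.8 and 65.1 CPM in mSOD1 medium, 63.5, 67.3 and 78.2 CPM in wtSOD1 medium, and 59.1, 62.4 and 70.0 CPM in NTg medium. The groups overlapped at their edges, and the mSOD1 library was the lower one in every same-numbered pair with wtSOD1 (higher in 0 of 6). Against wtSOD1 the difference was −0.28 ± 0.06 (adjusted p = 0.00494 in edgeR), and −0.25 without replicate 4 (0.071). Against NTg it was −0.14 ± 0.06 (adjusted p = 0.581 in edgeR), and on day 3 against wtSOD1 it was −0.12 ± 0.06 (0.26).

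The heat-inducible HSP70 genes Hspa1a and Hspa1b, the usual readout of an HSF1 response, had low counted levels throughout. Hspa1a had 2.59, 3.03 and 4.06 CPM in mSOD1 medium, 3.603, 4.52 and 5.73 CPM in wtSOD1 medium, and 3.14, 5.02 and 9.20 CPM in NTg medium on day 1 (lowest, median, highest). The mSOD1 library was higher in 0 of 6 same-numbered pairs with NTg, but the difference of −0.64 ± 0.20 did not pass (adjusted p = 0.278 in edgeR), nor did −0.54 ± 0.19 against wtSOD1 (0.238). Without NTg day 1 replicate 6 and wtSOD1 day 1 replicate 4 the difference from NTg was −0.50 (0.385). On day 3 Hspa1a had 3.11, 4.33 and 4.69 CPM in mSOD1 medium, 2.98, 4.06 and 5.13 CPM in wtSOD1 medium, and 2.94, 3.86 and 5.37 CPM in NTg medium, which overlapped over nearly their whole range. Hspa1b had 2.42, 3.22 and 4.72 CPM in mSOD1 medium, 3.12, 4.18 and 6.17 CPM in wtSOD1 medium, and 3.14, 4.33 and 10.6 CPM in NTg medium on day 1, and its difference from NTg was −0.41 ± 0.22 (adjusted p = 0.782 in edgeR). The copies are nearly identical, with 64.2% of the 36-base stretches of Hspa1a and 66.4% of those of Hspa1b also found in another gene, so the split of reads between them is uncertain. The sources used here do not say whether reads that match both were counted, so the level of each may be understated.

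A list of 19 genes known to be induced through HSF1, most of them members, with Cryab, Hsph1 and a few others beside them, had 0 genes past the threshold in any of the 6 comparisons between media. Of all genes tested, edgeR called from 0.0263% to 3.39% in these comparisons. The list's median difference between mSOD1 and NTg on day 3 was −0.08 on the log2 scale. The individual values ran close to 0 there: Hspa8 was −0.08 ± 0.04 (adjusted p = 0.324 in edgeR), Hsp90ab1 −0.06 ± 0.04 (0.437), Hspb1 −0.09 ± 0.14 (0.788), Hspb8 −0.10 ± 0.11 (0.656), Bag3 −0.15 ± 0.09 (0.347) and Dnajb1 −0.03 ± 0.06 (0.806). Hsf1 itself differed by −0.12 ± 0.07 (0.336). A p that misses the threshold does not show that the media acted alike.

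**Figure D2:**
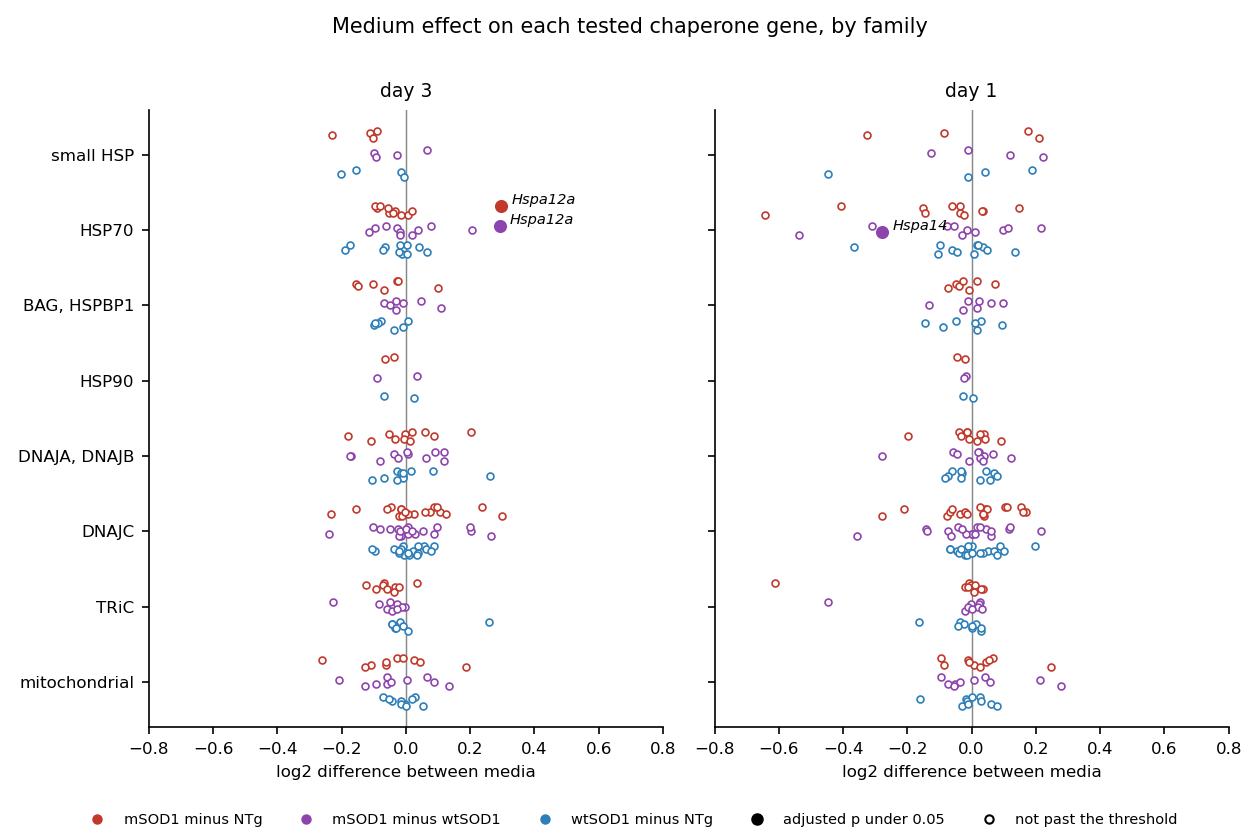
Log2 differences of each tested member between media (mSOD1 minus NTg, mSOD1 minus wtSOD1, wtSOD1 minus NTg), by chaperone family, on day 3 (left panels) and day 1 (right panels); each point is a member, filled where the adjusted p is below 0.05, and Dnajb13 is left out as off the scale. Most points lie near 0 in every panel, and Hspa12a is the filled point on day 3.

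The second question was what changed between 1 and 3 days in each medium. Day moved far more members than medium did. The small heat shock proteins Hspb6, Hspb8 and Hspb1 and the co-chaperone Bag3 rose by 0.62 to 1.78 on the log2 scale. The HSP110 gene Hspa4l and the J-domain genes Dnajc9 and Dnajb4 rose by 0.53 to 0.87. Hspbp1, Bag6, Dnajc6, Dnajc27 and Hspa1l fell, and the most abundant chaperones, Hsp90ab1 and Hspa8, did not pass the test. In mSOD1 medium 41 of 74 members passed (55.4%; 21 higher and 20 lower on day 3), against 56.5% of all genes (28.4% higher and 28% lower). In wtSOD1 medium 41 passed (22 higher, 19 lower), against 61.8% (31.1% higher and 30.7% lower). In NTg medium 41 passed (24 higher, 17 lower), against 61.6% (30.8% in each direction). The members' share was near or below the background, and their median absolute difference was 0.177 in mSOD1 medium, 0.207 in wtSOD1 medium and 0.193 in NTg medium, against 0.247, 0.279 and 0.279 for all genes.

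Each medium had its own libraries on both days, so these comparisons share no sample, although they share experiment numbers. The same 18 members were higher on day 3 in all 3 media, which is 85.7% of the higher calls in mSOD1 medium, 81.8% in wtSOD1 medium and 75% in NTg medium. The 18, and the higher calls in each medium, include Dnajb13. It passed the filter on low counts through its day 3 level, so its calls are no sign of agreement. The same 11 were lower in all 3, which is 55% of the lower calls in mSOD1 medium, 57.9% in wtSOD1 medium and 64.7% in NTg medium. Of the members tested these are 24.3% higher and 14.9% lower in all 3 media, against 23.2% and 22.1% of all 15207 genes. Over all genes, 3525 were higher in all 3 media, out of 4323 higher calls in mSOD1, 4724 in wtSOD1 and 4682 in NTg medium. For the lower calls it was 3358 out of 4264, 4672 and 4678. The agreement between media among the higher members was thus close to that of genes at large, and among the lower members it was below it. A further 22 passed in 1 or 2 media and 23 in none. The test of whether a day difference itself differed between media called 0 of 74 members for mSOD1 against NTg (0.23% of all genes; 6 members at an unadjusted p under 0.05; 0 in DESeq2, 0.651%) and 0 for wtSOD1 against NTg (0.0197%; 1 at an unadjusted p under 0.05; 0 in DESeq2, 0.0263%). With the block the first count was 1, Hspa12a, against 2.67% of all genes. Taking experiment into account also moved a few day calls of members not described elsewhere: Dnajc17 passed in mSOD1 medium (0.20 ± 0.09; adjusted p = 0.0509 in edgeR, 0.0232 with the block), and Hspa14 (−0.11 ± 0.06; 0.0969, 0.0429 with the block) and Dnajb14 (0.16 ± 0.09; 0.125, 0.049 with the block) in wtSOD1 medium.

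**Figure D3:**
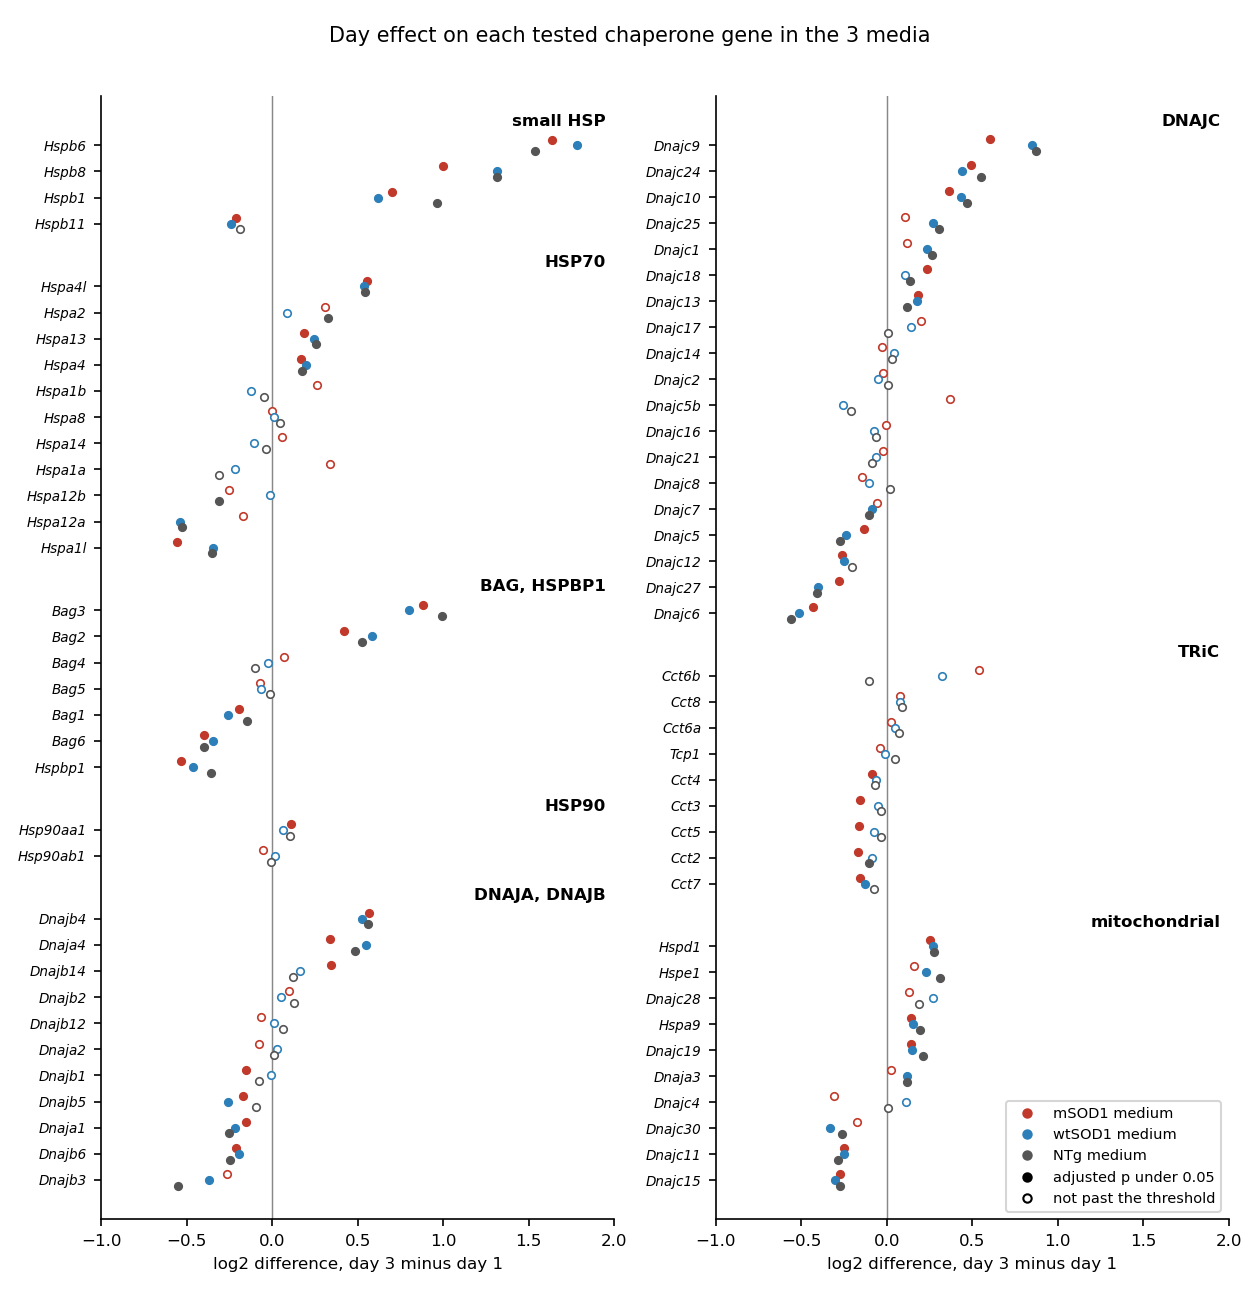
Log2 difference of day 3 minus day 1 for 73 tested members in mSOD1, wtSOD1 and NTg medium, grouped by family; filled points have an adjusted p below 0.05, and Dnajb13 is left out as off the scale. The 3 media lie close together for most members, and Hspb6, Hspb8, Bag3, Hspb1 and Dnajc9 lie farthest to the higher side.

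Of the 8 Hspb genes grouped as small heat shock proteins, 4 had enough reads to be tested. Hspb8, whose protein delivers misfolded clients to autophagy with BAG3, had 36.8, 52.8 and 57.0 CPM in mSOD1 medium on day 3 against 20.95, 24.9 and 27.6 CPM on day 1 (lowest, median, highest). In wtSOD1 medium it had 42.4, 52.8 and 61.5 CPM on day 3 against 17.0, 20.9 and 26.3 CPM on day 1, and in NTg medium 46.2, 49.9 and 61.9 CPM against 16.9, 20.7 and 27.8 CPM. The days did not overlap in any medium, and the differences were 1.00 ± 0.11, 1.32 ± 0.11 and 1.31 ± 0.12 in mSOD1, wtSOD1 and NTg medium (largest adjusted p = 2.12e-09 in edgeR). Its partner Bag3 had 18.0, 20.1 and 22.8 CPM on day 3 against 8.93, 10.4 and 13.9 CPM on day 1 in mSOD1 medium, with a difference of 0.88 ± 0.09. In wtSOD1 medium Bag3 had 19.6, 20.9 and 23.3 CPM on day 3 against 10.3, 12.6 and 13.5 CPM on day 1 (0.80 ± 0.09), and in NTg medium 20.1, 22.8 and 25.0 CPM against 8.49, 11.2 and 12.8 CPM (0.99 ± 0.09). Bag3 also showed no overlap between days (largest adjusted p = 3.94e-10 in edgeR).

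Hspb6, a small heat shock protein best known from muscle, showed the largest rise among the named members, at a low level. It overlaps the coding gene Lin37, and the sources used here do not say how shared reads were counted. Hspb6 had 3.99, 5.51 and 6.45 CPM on day 3 against 1.22, 1.67 and 2.56 CPM on day 1 in mSOD1 medium. In wtSOD1 medium it had 4.51, 5.70 and 6.59 CPM on day 3 against 1.22, 1.65 and 1.75 CPM on day 1, and in NTg medium 4.80, 6.40 and 7.96 CPM against 0.943, 2.40 and 2.44 CPM. The days did not overlap, with differences of 1.64 ± 0.17, 1.78 ± 0.16 and 1.54 ± 0.16 in mSOD1, wtSOD1 and NTg medium (largest adjusted p = 1.03e-10 in edgeR). Hspb1, the heat-inducible small heat shock protein that also steadies the cytoskeleton, had 47.6, 53.7 and 62.7 CPM on day 3 against 28.7, 32.4 and 39.4 CPM on day 1 in mSOD1 medium (0.70 ± 0.15). In wtSOD1 medium it had 41.4, 51.3 and 58.2 CPM on day 3 against 22.3, 32.6 and 45.7 CPM on day 1 (0.62 ± 0.15, with overlap), and in NTg medium 45.5, 58.9 and 64.8 CPM against 19.7, 25.8 and 42.3 CPM (0.96 ± 0.15). The largest of its adjusted p-values in edgeR was 0.000409. Of the 36-base stretches of Hspb1, 51.4% recur in another gene, chiefly the pseudogene Hsp25-ps1. Hspb11, which encodes a protein of ciliary transport and not a stress chaperone, was lower by small amounts: −0.21 ± 0.09 in mSOD1 medium (adjusted p = 0.0476 in edgeR, 0.059 with the block), −0.24 ± 0.09 in wtSOD1 medium (0.0175), and −0.19 ± 0.09 in NTg medium, which did not pass (0.0717).

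Markers of mesenchyme, astrocytes and dividing cells rose with these genes, while those of the oligodendrocyte lineage and microglia did not rise as sets. Mesenchyme markers summed to 1096 to 1445 CPM on day 3 against 439 to 695 CPM on day 1 in mSOD1 medium, 1083 to 1469 CPM against 432 to 681 CPM in wtSOD1 medium, and 1061 to 1470 CPM against 421 to 670 CPM in NTg medium, and 7 of the 7 tested rose. Astrocyte markers summed to 444 to 583 CPM on day 3 against 162 to 211 CPM on day 1 in mSOD1 medium, 468 to 611 CPM against 172 to 217 CPM in wtSOD1 medium, and 479 to 653 CPM against 158 to 235 CPM in NTg medium, with 6 of 8 higher and 1 lower, while Gfap had a day 1 median of 0 CPM in each medium. Dividing-cell markers rose in 7 of 8 in mSOD1 medium and in 8 of 8 in the other media. Oligodendrocyte lineage markers had median sums on day 3 of 66.1, 63.5 and 70.7 CPM in mSOD1, wtSOD1 and NTg medium. On day 1 these were 81.7, 71.7 and 77.7 CPM. Median sums of the microglia markers were 1.39, 1.49 and 1.37 CPM on day 3 against 2.09, 2.44 and 2.87 CPM on day 1. The small heat shock proteins, Bag3 and the crystallin Cryab are expressed by mesenchyme and astrocytes too, and the part of these cells in the rises was not tested.

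**Figure D4:**
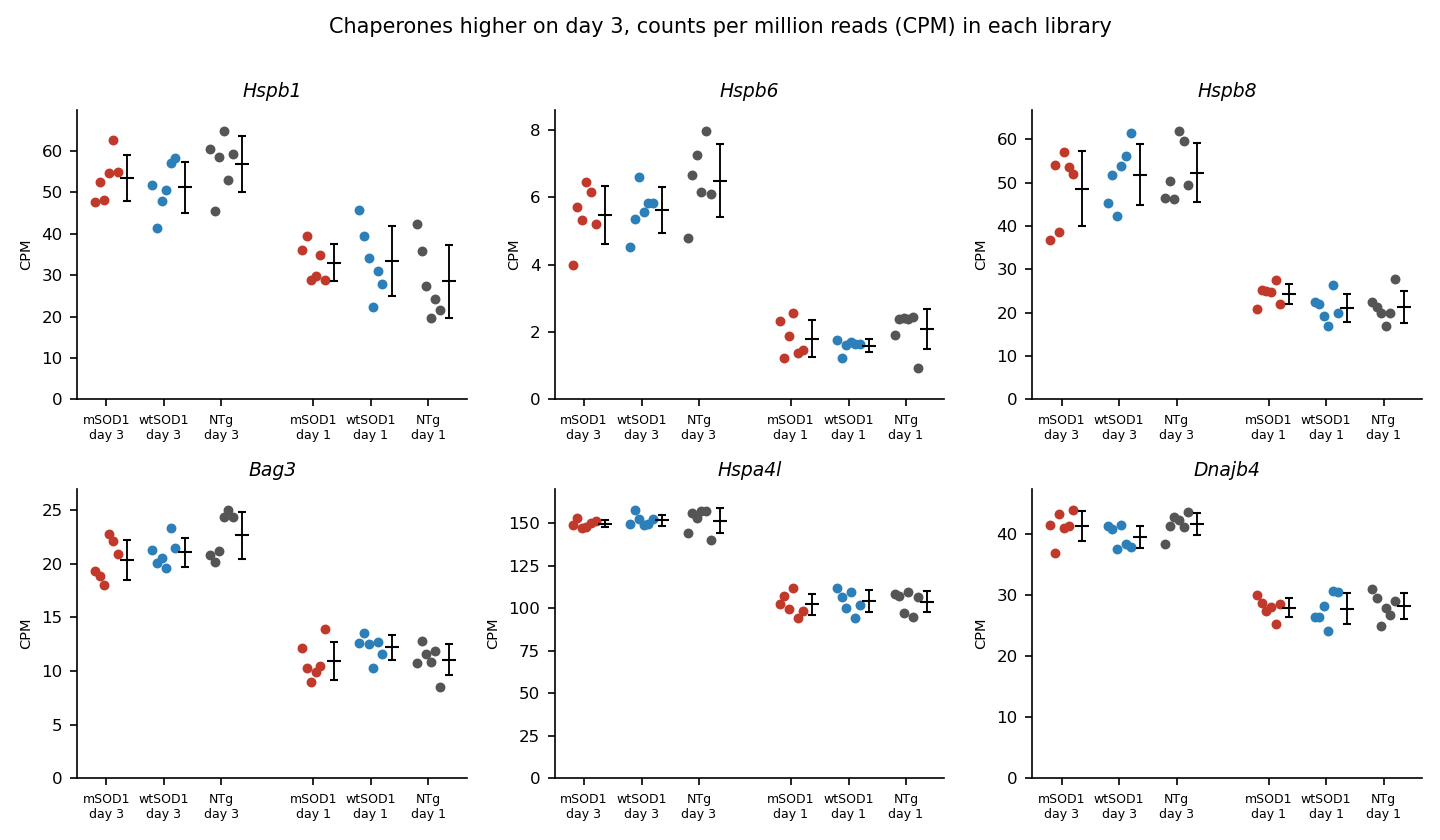
Levels in CPM (linear axes from 0) of Hspb1, Hspb6, Hspb8, Bag3, Hspa4l and Dnajb4 in each of the 36 libraries, day 3 groups left of day 1 groups; points are libraries and bars give the mean ± SD (n = 6). Day 3 libraries lie above day 1 libraries in every medium for Hspb6, Hspb8, Bag3, Hspa4l and Dnajb4, and Hspb1 overlaps in wtSOD1 medium.

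Among the 11 HSP70 genes outside mitochondria, Hspa4l, Hspa4 and Hspa13 rose in all 3 media and Hspa1l fell in all 3. Of all genes tested, 23.2% rose and 22.1% fell in all 3 media. Hspa4l and Hspa4 encode HSP110-type exchange factors that help HSP70 dissolve aggregates. Hspa4l lay between 140.4 and 158 CPM on day 3 and between 94.4 and 112 CPM on day 1 over the 3 media, with no overlap, and differed by 0.55, 0.54 and 0.54 (SE 0.04 each; largest adjusted p = 8.69e-14 in edgeR) in mSOD1, wtSOD1 and NTg medium. Hspa4 rose less, by 0.17, 0.20 and 0.17 in the same order. Hspa13, of the microsomes, rose by 0.18, 0.25 and 0.26. Hspa1l, the constitutive gene beside Hspa1a, fell by 0.55 in mSOD1, 0.34 in wtSOD1 and 0.35 in NTg medium, at 3.08 to 5.11 CPM on day 3 and 4.15 to 6.34 CPM on day 1. Hspa2 was called higher in NTg medium (0.32 ± 0.14, adjusted p = 0.0434 in edgeR) and Hspa12b lower in NTg medium (−0.31 ± 0.14, 0.0436), and neither passed in mSOD1 or wtSOD1 medium.

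Of the factors that open or hold the HSP70 cycle, Bag2 and Bag3 rose, and Bag1, Bag6 and Hspbp1 fell, in all 3 media. Bag4 and Bag5 passed in none. The shares of all genes tested were 23.2% higher and 22.1% lower in all 3 media. Bag2, an inhibitor of the ubiquitin ligase CHIP, had 15.6 to 23.9 CPM on day 3 and 11.4 to 16.0 CPM on day 1 and rose by 0.42 ± 0.09, 0.58 ± 0.08 and 0.52 ± 0.08 in mSOD1, wtSOD1 and NTg medium. Bag6, which guards mislocalised membrane proteins, had 183, 189 and 198 CPM on day 3 against 241, 252 and 262 CPM on day 1 in mSOD1 medium, without overlap. It fell by 0.40, 0.34 and 0.40 (SE 0.03 each; largest adjusted p = 2.87e-11 in edgeR). Hspbp1, which releases nucleotide from HSP70 and curbs CHIP, fell by 0.53 ± 0.08 in mSOD1, 0.46 ± 0.08 in wtSOD1 and 0.36 ± 0.08 in NTg medium. Bag1, which links HSP70 to the proteasome, fell by 0.20, 0.26 and 0.15. Stub1, the gene of CHIP and no member, fell by 0.14 in mSOD1 medium (adjusted p = 0.0293 in edgeR).

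J-domain genes moved in both directions. Of the 12 tested Dnaja and Dnajb genes outside mitochondria, 4 were higher and 4 lower in mSOD1 medium, 3 higher and 4 lower in wtSOD1 medium, and 3 higher and 3 lower in NTg medium. Dnajb13 is among the higher ones in each medium. Of all genes tested, 28.4% were higher and 28% lower in mSOD1 medium. The shares were 31.1% and 30.7% in wtSOD1 medium, and 30.8% in each direction in NTg medium. Dnajb4, a partner of HSP70 in the cytosol, had 37.0 to 44.0 CPM on day 3 and 24.2 to 31.0 CPM on day 1 and rose without overlap by 0.56, 0.53 and 0.56 (SE 0.06 each). Dnaja4 rose by 0.34 ± 0.10, 0.55 ± 0.09 and 0.48 ± 0.10. Dnajb6, which holds back the aggregation of polyglutamine proteins, lay between 87.8 and 97.0 CPM on day 3 and between 96.2 and 114 CPM on day 1, and fell by 0.21, 0.20 and 0.25 (SE 0.04 each). Dnaja1, an abundant HSP70 partner, fell by 0.15, 0.22 and 0.25. Dnajb5 fell by 0.17 in mSOD1 and 0.26 in wtSOD1 medium and was −0.10 in NTg medium (adjusted p = 0.217 in edgeR), and Dnajb3, known from testis, fell by 0.37 in wtSOD1 and 0.55 in NTg medium and was −0.27 in mSOD1 medium (0.188). Dnajb1, the heat-inducible partner of HSP70, was −0.15 ± 0.06 in mSOD1 medium (adjusted p = 0.0194 in edgeR), −0.01 in wtSOD1 medium (0.929) and −0.08 in NTg medium (0.225). Dnajb2, a neuronal J protein linked to inherited motor neuropathy, stood at 0.10, 0.05 and 0.13 (0.215, 0.538 and 0.0976) and passed in none, although it passed in NTg medium with the block (0.0476).

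Of the 19 tested Dnajc genes outside mitochondria, 5 were higher and 4 lower in mSOD1 medium, 6 higher and 5 lower in wtSOD1 medium, and 7 higher and 4 lower in NTg medium. Of all genes tested, 28.4% were higher and 28% lower in mSOD1 medium. The shares were 31.1% and 30.7% in wtSOD1 medium, and 30.8% in each direction in NTg medium. Dnajc9 rose most among these Dnajc genes. It had 53.8, 60.2 and 70.5 CPM on day 3 against 30.04, 41.8 and 48.6 CPM on day 1 in mSOD1 medium (0.60 ± 0.08), 62.5, 71.7 and 82.2 CPM against 36.4, 39.4 and 46.8 CPM in wtSOD1 medium (0.85 ± 0.08), and 65.3, 68.8 and 83.1 CPM against 35.6, 39.2 and 43.6 CPM in NTg medium (0.87 ± 0.08). The days did not overlap in any medium (largest adjusted p = 1e-07 in edgeR), and the dividing-cell markers rose over the same days.

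The synaptic pair fell. Dnajc6 had 127, 138 and 143 CPM in mSOD1 medium, 121, 127 and 131 CPM in wtSOD1 medium and 119, 126 and 133 CPM in NTg medium on day 1, above every day 3 library of the same medium. Its differences were −0.43, −0.51 and −0.56 (SE 0.07 each; largest adjusted p = 2.69e-06 in edgeR) in mSOD1, wtSOD1 and NTg medium. Dnajc5 fell by 0.13, 0.24 and 0.27 (SE 0.05 each). Dnajc27, a Rab-like protein with a J domain, fell by 0.28, 0.40 and 0.41. Dnajc12, a co-chaperone of the aromatic amino acid hydroxylases, fell by 0.26 in mSOD1 and 0.25 in wtSOD1 medium and was −0.20 in NTg medium (adjusted p = 0.0659 in edgeR). The motor neuron markers fell over the same days, and their part in the Dnajc6 and Dnajc5 values was not tested.

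Further members that rose in all 3 media were Dnajc10, Dnajc24 and Dnajc13. Dnajc10, a reductase of the endoplasmic reticulum, had 201 to 229 CPM on day 3 and 151.5 to 169.5 CPM on day 1 and rose without overlap by 0.37, 0.43 and 0.47 (SE 0.04 each) in mSOD1, wtSOD1 and NTg medium. Dnajc24, needed to make diphthamide on an elongation factor, rose by 0.49, 0.44 and 0.55 (SE 0.12 each). Dnajc13, of endosome sorting, rose by 0.18, 0.18 and 0.12.

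Of the 10 mitochondrial members, 3 were higher and 2 lower in mSOD1 medium, and 5 higher and 3 lower in wtSOD1 and in NTg medium, while Dnajc4 and Dnajc28 passed in none. Of all genes tested, 28.4% were higher and 28% lower in mSOD1 medium. The shares were 31.1% and 30.7% in wtSOD1 medium, and 30.8% in each direction in NTg medium. Hspd1 (HSP60) rose by 0.25, 0.27 and 0.28 (SE 0.05 each; largest adjusted p = 2.86e-05 in edgeR) and Hspa9 (mortalin, the import motor's HSP70) rose by 0.14, 0.15 and 0.20 (SE 0.04 each). Hspe1, the lid of the HSP60 chamber, rose by 0.23 in wtSOD1 medium (adjusted p = 0.00389 in edgeR) and 0.31 in NTg medium (0.000232), and in mSOD1 medium was 0.16 ± 0.07 (0.0563; 0.0369 with the block). Dnaja3, the matrix partner of mortalin, rose by 0.12 in wtSOD1 and in NTg medium and was 0.02 ± 0.05 in mSOD1 medium (0.719). Dnajc19, of the import motor, rose by 0.14, 0.14 and 0.21. Dnajc11, linked to the complex that shapes the cristae, and Dnajc15, of the inner membrane, fell: Dnajc11 by 0.25, 0.25 and 0.29 (SE 0.04 each) and Dnajc15 by 0.27, 0.30 and 0.28 (SE 0.08 each). Dnajc30, a mitochondrial J protein, fell by 0.33 in wtSOD1 and 0.26 in NTg medium and was −0.17 in mSOD1 medium (adjusted p = 0.0968 in edgeR). Hspd1 and Hspe1 share 46.6% and 22.7% of their 36-base stretches with other genes.

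The abundant folding machines varied little. Per kb of exon, Hsp90ab1 (558 CPM per kb), Hspa8 (316 CPM per kb) and Hsp90aa1 (203 CPM per kb) were the highest members. Hspa8, the constitutive HSP70, ran from 1226 to 1535 CPM over all 36 libraries, and day 3 minus day 1 was 0.00, 0.01 and 0.05 (SE 0.04 each) in mSOD1, wtSOD1 and NTg medium. Hsp90ab1, the constitutive HSP90, ran from 1486 to 1866 CPM, with −0.05, 0.01 and −0.01 (SE 0.04 each). For both genes the days overlapped in every medium. Of the 36-base stretches of Hspa8, 42.1% recur in another gene, as do 50.2% of those of Hsp90aa1. Hsp90aa1, the inducible HSP90, was 0.11 ± 0.05 in mSOD1 medium (adjusted p = 0.0423 in edgeR), 0.06 in wtSOD1 medium (0.266) and 0.10 in NTg medium (0.0596; 0.0315 with the block).

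Of the 9 tested genes of the TRiC ring and its relatives, 5 were lower on day 3 in mSOD1 medium, 1 in wtSOD1 medium (Cct7) and 1 in NTg medium (Cct2). Of all genes tested, edgeR called 28% lower in mSOD1, 30.7% in wtSOD1 and 30.8% in NTg medium. In mSOD1 medium Cct2 differed by −0.17 ± 0.04 (adjusted p = 0.00146 in edgeR), Cct5 by −0.16 ± 0.04 (0.00186), Cct7 by −0.16 ± 0.04 (0.00214), Cct3 by −0.16 ± 0.05 (0.00762) and Cct4 by −0.09 ± 0.03 (0.021). With the block 5 were lower in mSOD1 medium, and 2 lower and 1 higher (Cct8) in each of the other media: Cct2 and Cct7 were lower in wtSOD1 medium, and Cct2 and Cct4 in NTg medium. That fit called 58.8% of all genes in mSOD1, 63.8% in wtSOD1 and 63.6% in NTg medium, counting both directions. Its shares of all genes lower were 29.3% in mSOD1, 31.6% in wtSOD1 and 31.8% in NTg medium. The shares higher were 29.6%, 32.2% and 31.8% in the same order. Tcp1, Cct6a and Cct6b passed in none. The test of the day difference between media called 0 of the 9, so these counts are not shown to differ between media. Cct5 showed the size involved: 279, 300 and 306 CPM on day 3 against 304, 322 and 379 CPM on day 1 in mSOD1 medium, and 294, 315 and 330 CPM against 314, 323 and 332 CPM in NTg medium. The days overlapped in both media.

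**Figure D5:**
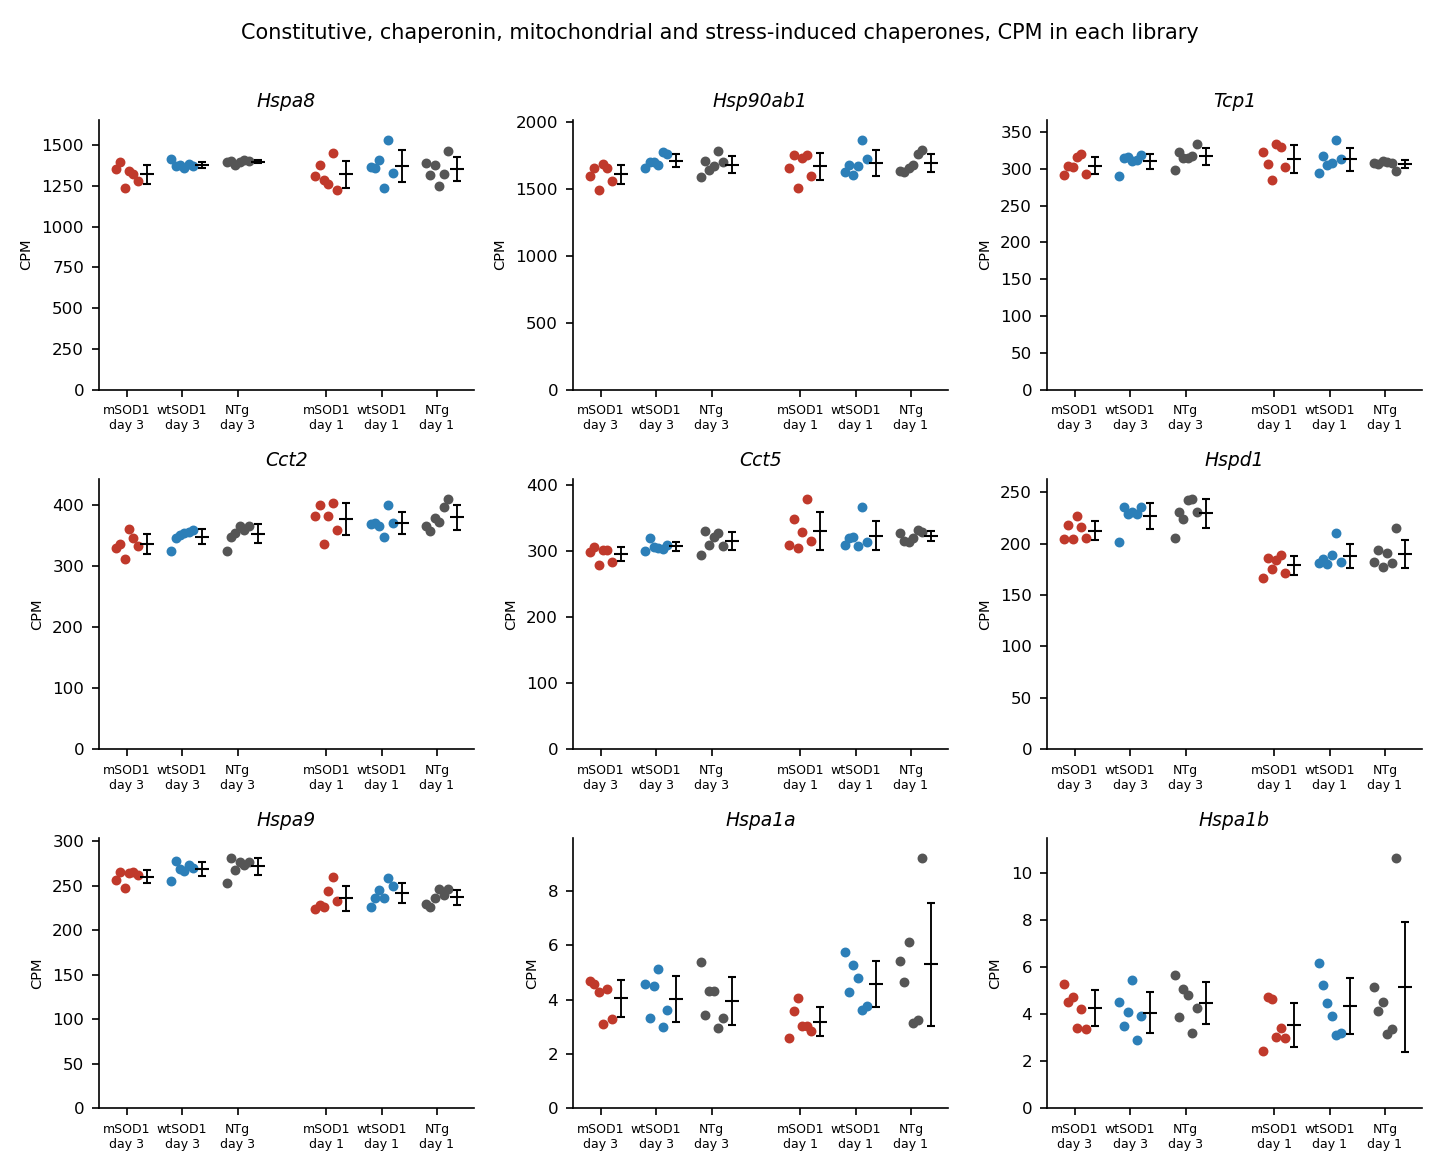
Levels in CPM (linear axes) of Hspa8, Hsp90ab1, Tcp1, Cct2, Cct5, Hspd1, Hspa9, Hspa1a and Hspa1b in each of the 36 libraries, day 3 groups left of day 1 groups; points are libraries and bars give the mean ± SD (n = 6). Hspa8 and Hsp90ab1 stay between 1226 and 1866 CPM in all groups, Hspd1 and Hspa9 have higher means on day 3, and the NTg day 1 library at 10.6 CPM stands above all others in Hspa1b.

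The pathway's other genes were read from a list of 39, of which 38 were tested. Between days, 8 were higher and 13 lower in mSOD1 medium, 10 higher and 12 lower in wtSOD1 medium, and 12 higher and 10 lower in NTg medium. Of all genes tested, 28.4% were higher and 28% lower in mSOD1 medium. The shares were 31.1% and 30.7% in wtSOD1 medium, and 30.8% in each direction in NTg medium. Cryab, a small heat shock protein whose symbol falls outside the rule, had the widest change: 35.3, 47.8 and 57.5 CPM on day 3 against 7.22, 8.08 and 10.2 CPM on day 1 in mSOD1 medium, and a rise of 2.49, 2.49 and 2.79 on the log2 scale in mSOD1, wtSOD1 and NTg medium. Hsph1, an HSP110, rose by 0.09, 0.18 and 0.16. Hsf1 and Trap1, the mitochondrial HSP90, passed in none. The induced core of the HSF1 response had 9 higher and 2 lower of 19 in mSOD1 medium, 11 higher and 1 lower in wtSOD1 medium, and 12 higher and 1 lower in NTg medium. The shares of all genes given above stand beside these counts too. Hspa1a and Hspa1b were not among the calls. Between media, 1 of the 38 passed for mSOD1 against NTg on day 3, against 2.91% of all genes. It was Lonp1, the protease of the mitochondrial matrix, with 60.5, 62.8 and 66.1 CPM in mSOD1 medium and 66.2, 68.7 and 71.5 CPM in NTg medium. It differed by −0.12 ± 0.04 from NTg (adjusted p = 0.0443 in edgeR) and by −0.16 ± 0.04 from wtSOD1 (0.00627).

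Dnajb13, whose protein sits in the axoneme of cilia and sperm tails, was singled out after its values were seen and passed the filter on low counts through its day 3 level. It had 1.65 to 2.43 CPM on day 3 against 0 to 0.407 CPM on day 1 in mSOD1 medium, 1.14 to 3.27 CPM against 0 to 0.0963 CPM in wtSOD1 medium, and 1.58 to 3.47 CPM against 0 to 0.273 CPM in NTg medium. The days did not overlap. Summed over the 6 libraries of a group it had 156 reads on day 3 and 17 on day 1 in mSOD1 medium, 215 and 3 reads in wtSOD1 medium, and 241 and 10 reads in NTg medium. Having been kept through its day 3 level, it had to differ between the days, so these values are a description. It is still among the higher calls counted for the members and for the Dnaja and Dnajb genes in each medium. The day 1 call of mSOD1 over wtSOD1, which rests on 17 against 3 reads, was lost without replicate 2, 3, 4 or 5 (adjusted p from 0.103 to 0.575 in edgeR).

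The 9 members not tested had few reads: over all 36 libraries Dnajc22 had 267, Dnajb7 212, Hspb9 198, Hspb2 176, Hspb3 29, Cct8l1 26, Hspb7 9, and Dnajb8 and Dnajc5g 2 each. Hspb2, Hspb3 and Hspb7 are known as muscle small heat shock proteins. Across the 6 group means, the tested members with the narrowest span were Dnajc2 (0.05 on the log2 scale), Tcp1 (0.06), Dnajc14 (0.06) and Cct6a (0.07), and those with the widest, Dnajb13 aside, were Hspb6 (1.94), Hspb8 (1.31), Bag3 (1.05) and Hspb1 (1.04). Of the 83 members, 19 overlap another coding gene, among them Hspa12a, Hspb6, Dnajb4 and Dnajb3. Without the strand setting of the counting, their reads cannot be told from those of the neighbour.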

How the data were processed

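RNA sequencing of 36 libraries gave whole-number read counts per gene, deposited by the authors with 1 table per library, per the file headers. Per the submitters' processing notes, TopHat 1.3.3, the mm9 build and DESeq were used. The sources used here name no counter, annotation or strand setting. A second column of transformed values was left unused. Rows with a gene identifier but no symbol (7 genes) stayed in the fit.

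Counts were tested in R 4.3.3 with edgeR 4.0.16 (quasi-likelihood F-tests, robust fit, TMM scaling, filterByExpr by group). The fit took all 36 libraries and estimated 6 group means, leaving 30 degrees of freedom. The 11 comparisons were 6 between media, 3 between days and 2 of the day difference between media. P-values were adjusted after Benjamini-Hochberg across 15207 genes, with a threshold of 0.05. CPM are counts per M reads on TMM-scaled library sizes. Depth, from 4.39 to 88.9 M reads, limits the low genes most.

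Libraries are numbered by experiment in the labels, and the number was read as a shared experiment. Within a day, libraries with the same number deviated together from the means of their groups, with a correlation of 0.132 on average on day 1 (11 of 18 pairs over 0.1) and of 0.24 on day 3 (16 of 18). Across days, same-numbered libraries hardly deviated together, with a correlation of 0.0373 on average (9 of 54 pairs over 0.1). The replicate block fits the same term per number on both days, a sharing that these values hardly show. Its values are given where they change a member's call. Those for day differences, and for day differences between media, lack that basis.

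The members, gene families and lists were chosen with earlier results of these data known. Per comparison, members past the threshold with an average log2 CPM of at least 1 were named, up to 10 per direction by size, and a fixed set of familiar chaperones was named whatever its value. Libraries described singly were chosen after their values were seen. Alternatives were DESeq2 1.42.0, its size factors in edgeR, no filter, the block, a block within each day (added after the data were seen), leaving out the 2 libraries that stood apart in depth, and leaving out each replicate number. Promoters and 36-base stretches came from RefSeq tables and GENCODE M21 (GRCm38), matched by gene identifier or symbol, and no coordinates were converted.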

Additional observations from a re-analysis of the deposited data

Results flagged for a closer look

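Of 204 groups of 6 libraries looked at, 12 held a library far from the other 5 by Dixon's criterion, where chance gives about 1 in 20. NTg day 1 replicate 6, the shallowest library, accounts for 5 of them. Its Hspa1b level was 10.6 CPM, against 3.14 to 5.13 CPM in the other NTg day 1 libraries, its Hspb6 level 0.943 CPM against 1.91 to 2.44 CPM, and its Tcp1 level 297 CPM against 307 to 311 CPM. Its microglia markers summed to 51.9 CPM against 0.738 to 3.35 CPM, and its oligodendrocyte lineage markers to 245 CPM against 73.4 to 79 CPM.

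Replicate 1 of wtSOD1 day 3 was low in chaperonins and HSP60: Hspd1 had 202 CPM against 229 to 236 CPM in the other libraries, Cct2 324 CPM against 345 to 358 CPM, and Tcp1 290 CPM against 310 to 318 CPM. The remaining libraries stood apart in 1 measure each. Hspd1 was 211 CPM in wtSOD1 day 1 replicate 5 against 181 to 189 CPM, and Hspb6 was 1.22 CPM in wtSOD1 day 1 replicate 2 against 1.6 to 1.75 CPM. Hsf1 was 26.7 CPM in mSOD1 day 1 replicate 2 against 22.8 to 24.2 CPM, and the astrocyte markers summed to 653 CPM in NTg day 3 replicate 2 against 479 to 538 CPM.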

How the results depend on the processing

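No direction was reversed under any alternative, and the counts of members that differed between days stayed within 1.5 times of those reported. The counts between media were small and moved. For mSOD1 against NTg on day 3, 1 member was higher, against 2 in DESeq2, 0 without the filter on low counts, 3 with the replicate block, 3 with the block within each day and 0 to 1 when a replicate number was left out. Of all genes, 2.23% were higher in edgeR, 4.09% in DESeq2, 6.46% with the replicate block and 10.9% with the block within each day. The count lower was 0, against 1 with the replicate block and 4 with the block within each day (Dnajc9, Cct3, Cct5 and Hspd1). In that order, these blocks called 3.48% and 7.23% of all genes lower. For mSOD1 against wtSOD1 on day 3, 1 was higher, against 2 with either block and 0 to 1 with a replicate left out. The count lower was 0, against 1 with either block. The replicate block called 5.87% of all genes higher and 3.45% lower, and the block within each day 9.48% and 6.08%. On day 1 that comparison had 1 higher, against 2 with the block within each day, 0 without NTg day 1 replicate 6 and wtSOD1 day 1 replicate 4, and 0 to 1 with a replicate left out. It had 1 lower, against 0 to 1 with a replicate left out. There edgeR called 0.539% of all genes higher and 0.467% lower, and the block within each day called 1.72% higher. The day difference between mSOD1 and NTg had 0 higher, against 1 with the replicate block, where 1.82% of all genes were higher. The cause was not tested. Among single members, Hspa12a against NTg on day 3 was 0.29 without the filter (adjusted p = 0.0514 in edgeR). The replicate block changed no other call between media than those given here, and between days it gave 43 calls in mSOD1, 45 in wtSOD1 and 45 in NTg medium, against 41 in each. Members under a few CPM, such as Hspa1a and Hspa1b, are limited by depth in the shallow library.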
